A study of Homo sapiens with 6 samples.

Results

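AP-1 is a family of transcription factors that bind DNA as pairs of basic leucine zipper proteins, and 10 of its genes were followed here by symbol: FOS, FOSB, FOSL1 and FOSL2 of the Fos family, JUN, JUNB and JUND of the Jun family, and ATF2, ATF3 and BATF3. All 10 were among the 15897 genes listed in the deposited expression table, and all 10 passed the filter on low values that left 14068 genes to test, an average of 0.5 FPKM or more across 6 libraries. FPKM divides fragments by gene length and by the library's total, so levels of different genes can be compared per length.

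The study sequenced total RNA of cells labelled H1650, an established human lung adenocarcinoma line, to find genes that respond to loss of SETD2, the enzyme that trimethylates lysine 36 of histone H3. 3 libraries are labelled control, with the genotype given as wild type, and 3 are labelled shSETD2. The study made short hairpin RNAs from 3 constructs in the PLKO.1-TRC vector and used lentivirus to establish stable lines. Libraries came from a stranded kit. The paper numbers its constructs shSETD2-1 to shSETD2-3, and the library titles end in the same way. Still, no source used here states if shSETD2 libraries 1 to 3 are different constructs or repeats of 1 construct. For other assays the paper names a scramble control and vector control cells. What vector, if any, the control cells of these libraries carried is not stated. Since nothing says that libraries of a group came from separate cultures, p-values measure only the spread between these libraries, which may be technical.

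Fos proteins cannot pair with themselves and bind DNA with a Jun partner, while Jun proteins can also pair with each other or with ATF proteins. The pairs recognise the TPA response element or the longer cyclic AMP response element, and many of these genes are immediate early genes, switched on within minutes by growth factors and stress through MAP kinases. In lung and other carcinomas AP-1 is known for driving genes of invasion, inflammation and growth, with FOSL1 a frequent partner in cells with active RAS or EGFR signalling.

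SETD2, the gene the hairpins target, was at an FPKM of 18.0, 10.2 and 17.6 in control libraries 1 to 3, against 8.97, 8.09 and 12.2 in shSETD2 libraries 1 to 3. Control library 2 lay below shSETD2 library 3, so the groups overlapped. The log2 fold change of FPKM + 1, shSETD2 minus control, was -0.58 (standard error, SE, 0.240, adjusted p = 0.0641 from limma over all genes tested, exact permutation p = 0.2). Without control library 2 it was -0.83 (adjusted p = 0.00666 from limma), and without shSETD2 library 3 it was -0.73 (adjusted p = 0.0420 from limma), with 0.00666 to 0.377 over all alternatives. With a replicate block it stayed at -0.58 and passed (adjusted p = 0.01565 from limma), though no source used here states that same-numbered libraries are pairs. As the target itself gave no clean split, libraries go by their labels below.

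The groups stood far apart. Pearson's r of log2(FPKM + 1), taken across genes that are no replicates of each other, was 0.982 to 0.990 within a group and 0.701 to 0.707 between groups. Of 10 lung epithelial markers, 2 were listed. Only NKX2-1 had a mean FPKM of 1 or more in the control libraries, and only MUC1 in the shSETD2 libraries. MUC1 was higher there, with means of 0.639 in the control and 2.65 in the shSETD2 libraries. The list summed to 2.46, 2.29 and 2.11 in control libraries 1 to 3, against 2.94, 2.19 and 2.81 in shSETD2 libraries 1 to 3. NKX2-1, which specifies lung epithelium, was at 1.71, 1.80 and 1.44 in the control libraries and listed at 0 in all 3 shSETD2 libraries, where MUC1 was the most abundant marker of the list. The surfactant genes, NAPSA, FOXA2 and SCGB1A1 were not listed. So few markers of the labelled tissue were present in either group.

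Of 10 general epithelial markers, 9 were listed, with 3 at a mean FPKM of 1 or more in the control and 4 in the shSETD2 libraries. The keratin KRT18 was the most abundant in both groups, and the list summed to 16.4, 14.4 and 15.3 in control libraries 1 to 3, against 442.4, 406.1 and 458.9 in shSETD2 libraries 1 to 3. The sum hides markers that went opposite ways. KRT7 was at 0, 0.0375 and 0.0250 in the control, against 81.6, 77.0 and 87.1 in the shSETD2 libraries, and KRT8 had means of 2.86 and 93.9, whereas CDH1 was at 1.52, 1.43 and 0.860 against 0.0107, 0.0140 and 0.0114. CLDN7 went from 0.219, 0.0920 and 0.266 to 0, 0 and 2.39e-05, and EPCAM had means of 0.710 and 0.220. Like the keratins, ELF3 (means 0.221 and 4.23), ESRP1 (0.0176 and 0.803) and CLDN4 (0.0670 and 0.175) were higher in the shSETD2 libraries. Of 10 genes that mark embryonic kidney lines, 9 were listed, with 6 at a mean of 1 or more in each group and sums of 161.5, 156.2 and 156.7 in control and 87.9, 80.2 and 82.5 in shSETD2 libraries. The 6 genes were not the same, with CDH2, IGF2BP1 and WT1 in both sets, LIN28B, NEFL and NEFM in that of the control and LHX1, PAX2 and PAX8 in that of the shSETD2 group. PAX8 was at 0.0147, 0.0368 and 0 in the control and led the list in the shSETD2 libraries at 35.2, 28.1 and 29.2, with PAX2 (means 0.739 and 9.93), LHX1 (0.802 and 4.65) and WT1 (1.22 and 3.62) also higher. IGF2BP1 led in the control and was lower in the shSETD2 libraries (54.2 and 11.4), where LIN28B, NEFL and NEFM were listed at 0, against control means of 21.5, 21.4 and 37.8. Fibroblast markers (4 of 10 listed, led by COL1A1) summed to 4.04, 4.54 and 4.06 in control and 0.340, 0.292 and 0.311 in shSETD2 libraries. Blood cell markers (3 of 10 listed, led by CD68) summed to 1.78, 1.46 and 1.92 against 1.91, 2.24 and 2.02, with HBA1 listed at 0 in the shSETD2 libraries. Of 6 endothelial markers, 0 were listed. Whether both groups come from the same cell line was not tested. The marker differences run with the labels, so a difference between cell populations and the hairpin cannot be told apart here, and each AP-1 fold change compares the libraries as labelled. Likewise, fewer cells of a type and less RNA per cell cannot be told apart in bulk RNA.

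The AP-1 genes changed in both directions, with the Fos family up, JUNB up, JUN and ATF3 down. All 10 members passed an adjusted p under 0.05 in limma, where 78.6% of all genes tested did. Of these, 8 were higher in the shSETD2 libraries, against 26.8% of all genes, and 2 were lower, against 51.8% of all genes. JUND was 1 of the 8 higher genes, and its direction turned with quantile normalization, which left 7 higher. The groups did not overlap for any of the 10 members, against 80.9% of all genes, with 8 higher (27.9% of all genes) and 2 lower (53% of all genes). An exact two-sided permutation test gave p = 0.1 for each member, the smallest that 3 libraries against 3 can give. The median log2 fold change of the members was 1.05, against -0.29 for all genes tested. The latter median depended on scaling, being -0.01 after median ratio scaling and -0.10 after quantile normalization, and the share of called genes that were higher went from 34.1% to 49.6% and 43.7%. The members' counts and the background shares are set side by side without a test of the list.

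**Figure D1:**
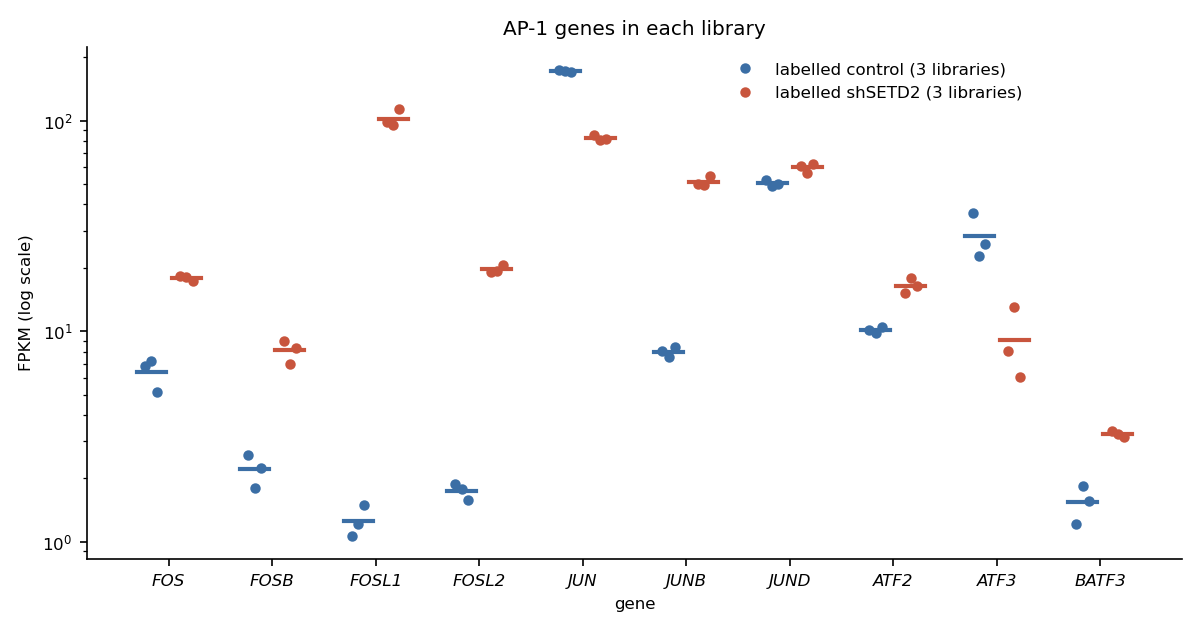
FPKM of the 10 AP-1 genes, on a log axis, in the 3 libraries labelled control (blue) and the 3 labelled shSETD2 (red); each point is a library and each bar the mean of the group. FOSL1 went from 1.07 to 1.49 in the control libraries to 95.0 to 113 in the shSETD2 libraries, while JUN and ATF3 were lower there, and the higher JUND of the shSETD2 libraries did not hold under quantile normalization.

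FOSL1 (ENSG00000175592.8_3), on the minus strand at chr11:65659520-65668044 of GRCh37, encodes FRA1, a Fos protein without the strong activation domain of FOS. Control libraries 1 to 3 read 1.07, 1.21 and 1.49 FPKM, and shSETD2 libraries 1 to 3 read 98.3, 95.0 and 113. The gene was low in every control library and among the more abundant transcripts in every shSETD2 library, with no overlap. The shSETD2 mean was 81.1 times the control mean, and the log2 fold change of 5.51 (SE 0.0948, adjusted p = 5.48e-08 from limma) was the 49th highest of all genes tested. Relative to the median of all genes it was 5.80.

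FOSL2 (ENSG00000075426.11_3) at chr2:28615315-28640179 encodes FRA2, the closest relative of FRA1 in structure and use. Its FPKM was 1.87, 1.78 and 1.57 in the control libraries and 19.1, 19.3 and 20.7 in the shSETD2 libraries. Every shSETD2 library lay far above every control library. The means differed 11.3 times, with a log2 fold change of 2.92 (SE 0.0631, adjusted p = 1.21e-07 from limma).

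FOS (ENSG00000170345.9_3) at chr14:75745477-75748933 is the classical immediate early member, whose messenger RNA is short lived. Control libraries 1 to 3 had 6.86, 7.24 and 5.14 and shSETD2 libraries 1 to 3 had 18.3, 18.0 and 17.3. The shSETD2 libraries were tight and all above the controls, 2.79 times on average (log2 fold change 1.36, SE 0.113, adjusted p = 4.67e-05 from limma). FOSB (ENSG00000125740.13_3) at chr19:45971253-45978437, a Fos protein that accumulates on repeated stimulation in its short form, had 2.59, 1.80 and 2.25 in the control libraries and 8.998, 6.98 and 8.33 in the shSETD2 libraries. Again each shSETD2 library exceeded each control, with a mean 3.66 times as high (log2 fold change 1.504, SE 0.122, adjusted p = 4.12e-05 from limma). The 4 Fos genes were higher under each scaling and each omission of a library.

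The Fos family also changed in make-up. Summed over its 4 genes, FPKM was 12.4, 12.0 and 10.5 in control libraries 1 to 3 and 144.7, 139.3 and 159.4 in shSETD2 libraries 1 to 3. FOS made up 55.4%, 60.2% and 49.2% of this sum in the control libraries and 12.7%, 12.9% and 10.9% in the shSETD2 libraries. FOSL1 went the other way, from 8.61%, 10.1% and 14.3% to 67.9%, 68.2% and 70.9%. The share of FOSL2 stayed between 13.0% and 15.1% in all libraries, since it rose about as much as the family sum. Shares within a library do not depend on a single factor for that library, as in median ratio scaling, but they can change with quantile normalization, under which they were not computed.

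**Figure D2:**
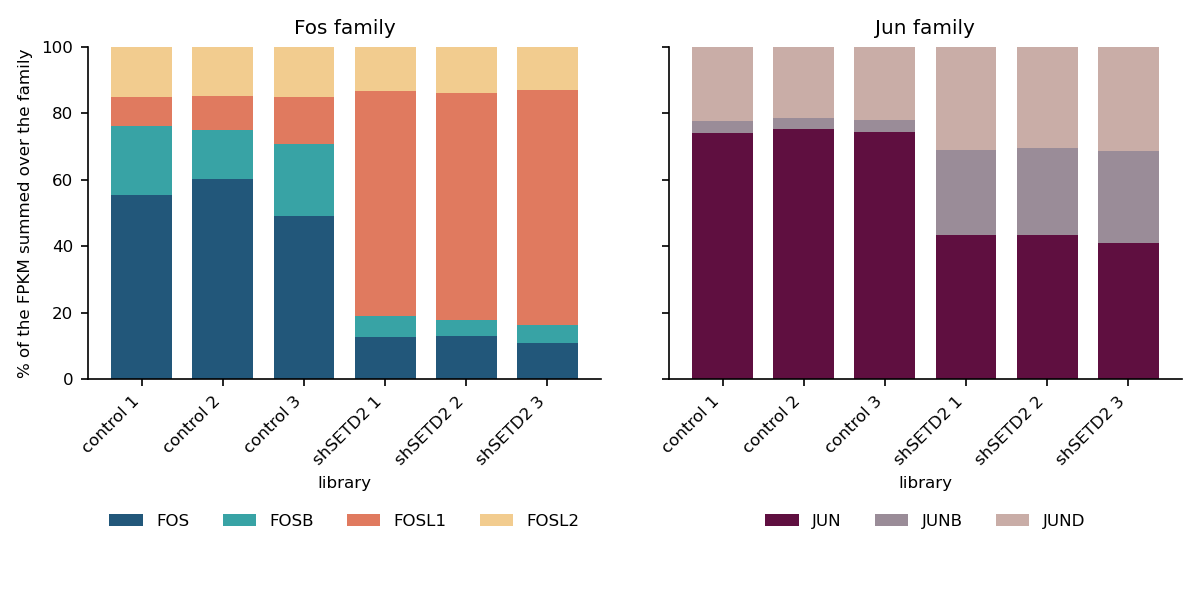
Each gene's percent of the FPKM summed over the Fos family (left) and over the Jun family (right), per library. FOS held the largest share of the Fos family in each control library and FOSL1 in each shSETD2 library, while the share of JUN in the Jun family went from at least 74.2% to at most 43.4%.

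JUN (ENSG00000177606.6_2), on the minus strand at chr1:59246460-59249999, encodes the most potent activator of the Jun family and is known to be induced by its own product. It read 173, 172 and 169 in control libraries 1 to 3 and 84.9, 80.7 and 81.5 in shSETD2 libraries 1 to 3. The coefficient of variation was 1.15% and 2.71% in the groups, against medians of 7.48% and 8.32% over the genes tested, so the groups lay far outside each other's spread. The control mean was 2.08 times the shSETD2 mean, with a log2 fold change of -1.05 (SE 0.0320, adjusted p = 4.95e-07 from limma), or -0.76 relative to the median of all genes.

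JUNB (ENSG00000171223.5_2) at chr19:12902310-12904129 encodes a weaker activator that can oppose JUN on some genes. It was at 8.01, 7.53 and 8.38 in the control libraries, against 49.9, 49.2 and 54.4 in the shSETD2 libraries. The groups were compact and far apart, with a mean 6.42 times as high in the shSETD2 libraries (log2 fold change 2.54, SE 0.0588, adjusted p = 1.56e-07 from limma). Its exons share 259 bases with those of HOOK2 on the opposite strand, whose mean was 3.12 in the control and 0.865 in the shSETD2 libraries. Whether the authors' counting used strand is not stated, so fragments of the shared bases cannot be told apart.

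JUND (ENSG00000130522.5_3), on the minus strand at chr19:18390570-18392432, encodes the Jun protein that most cells hold at a steady level. Its FPKM was 52.3, 48.9 and 50.1 in the control libraries and 60.9, 56.6 and 62.3 in the shSETD2 libraries. The groups did not overlap, but the closest libraries, control 1 and shSETD2 2, were 52.3 and 56.6. The log2 fold change was 0.24 (SE 0.0490, adjusted p = 0.00364 from limma), 0.59 after median ratio scaling and -0.02 after quantile normalization (adjusted p = 0.602 from limma, with 6.71e-05 to 0.602 over its alternatives), so its direction depended on scaling.

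With JUN down and JUNB up, the Jun family sum moved less than either of these genes, from 233.5, 228.1 and 227.8 in control libraries 1 to 3 to 195.7, 186.5 and 198.2 in shSETD2 libraries 1 to 3. JUN made up 74.2%, 75.3% and 74.3% of it in the control libraries and 43.4%, 43.3% and 41.1% in the shSETD2 libraries, and JUNB 3.43%, 3.30% and 3.68% against 25.5%, 26.4% and 27.5%. The ratio of summed Fos to summed Jun FPKM was 0.0531, 0.0527 and 0.0459 in the control libraries and 0.740, 0.747 and 0.804 in the shSETD2 libraries. Jun transcripts outnumbered Fos transcripts per length in every library, by far more in the control ones. How these ratios carry over to protein pairs was not measured.

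ATF3 (ENSG00000162772.16_3) at chr1:212738676-212794119 encodes a stress-induced factor that often represses its targets. It was at 36.3, 22.8 and 26.0 in control libraries 1 to 3, against 8.09, 13.0 and 6.07 in shSETD2 libraries 1 to 3. ATF3 varied most of the members, with coefficients of variation of 24.9% and 39.3%, yet the lowest control library stayed above the highest shSETD2 library. The control mean was 3.13 times the shSETD2 mean (log2 fold change -1.58, SE 0.280, adjusted p = 0.00197 from limma).

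ATF2 (ENSG00000115966.16_2), on the minus strand at chr2:175936978-176033110, encodes a partner of JUN that is activated by JNK and p38 kinases. Its FPKM was 10.1, 9.85 and 10.5 in the control libraries and 15.2, 17.9 and 16.3 in the shSETD2 libraries, all above the controls. The log2 fold change was 0.65 (SE 0.0651, adjusted p = 0.000118 from limma). A long noncoding RNA on the opposite strand that was not listed shares 246 exonic bases with it, and the same limit of strand applies. BATF3 (ENSG00000123685.8_2), on the minus strand at chr1:212859760-212873327, encodes a small Jun partner best known from dendritic cells. It was at 1.22, 1.83 and 1.56 in the control libraries, against 3.35, 3.23 and 3.14 in the shSETD2 libraries. Its level was low in both groups, with no overlap (log2 fold change 0.75, SE 0.0964, adjusted p = 0.000406 from limma).

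**Figure D3:**
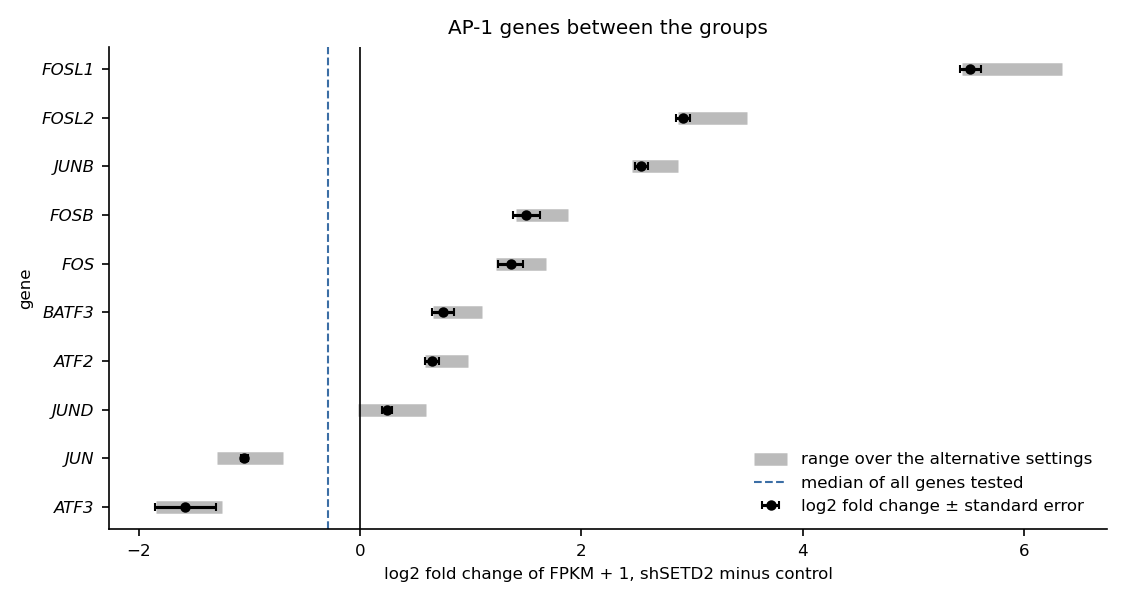
Log2 fold change of FPKM + 1, shSETD2 minus control, of the 10 AP-1 genes (points, with the SE of limma), with the range over the alternative settings (grey bars) and the median of all genes tested (dashed line). From FOSL1 at 5.51 to ATF3 at -1.58, the range of JUND alone crossed 0, by quantile normalization.

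Within the control libraries the order of mean FPKM was JUN (171), JUND (50.4), ATF3 (28.4), ATF2 (10.1), JUNB (7.97), FOS (6.42), FOSB (2.21), FOSL2 (1.74), BATF3 (1.54) and FOSL1 (1.26). Each neighbour in this order down to FOSB was separate from the next in its 3 libraries, while FOSB, FOSL2, BATF3 and FOSL1 overlapped with their neighbours. Within the shSETD2 libraries it was FOSL1 (102), JUN (82.4), JUND (59.9), JUNB (51.2), FOSL2 (19.7), FOS (17.9), ATF2 (16.5), ATF3 (9.05), FOSB (8.10) and BATF3 (3.24), with overlap between FOS and ATF2 and between ATF3 and FOSB. FOSL1 was thus last of the 10 in the control and first in the shSETD2 libraries. The sum over the 10 genes was 293.5, 274.6 and 276.3 in the control and 367.1, 359.8 and 383.1 in the shSETD2 libraries.

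The RefSeq promoter table, built on GRCh38.p14, held windows for 7 of the 10 members, matched by symbol: FOS, FOSB, FOSL2, JUN, JUNB, JUND and ATF3, which had 2. FOSL1, ATF2 and BATF3 were not matched. The 250 bases before each start were placed in GRCh37 by exact match and searched on both strands for TGANTCA (the TPA response element), TGACGTCA (the cyclic AMP response element), TGACATCA (a variant of it), the CArG box, the κB site and TATAA. The last of these lay in the windows of FOS, FOSB, JUNB, JUND and the second window of ATF3 (19.0% of 34943 windows of this length held it), and those of FOS and ATF3 lie inside the genes as deposited. The windows of JUNB and JUND lie wholly before the genes as deposited and are shown whole. These Jun genes of chromosome 19 differed in size of change, but a link to the letters of their windows was not tested. Capitals mark TATAA in both and TGACGTCA in JUND.
JUNB, chr19:12902050-12902299, plus strand: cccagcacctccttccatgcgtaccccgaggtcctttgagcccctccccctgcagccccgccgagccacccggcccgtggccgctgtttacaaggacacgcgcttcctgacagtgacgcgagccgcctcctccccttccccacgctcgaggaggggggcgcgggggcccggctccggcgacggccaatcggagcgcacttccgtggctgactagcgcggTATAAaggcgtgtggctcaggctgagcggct
JUND, chr19:18392433-18392682, minus strand: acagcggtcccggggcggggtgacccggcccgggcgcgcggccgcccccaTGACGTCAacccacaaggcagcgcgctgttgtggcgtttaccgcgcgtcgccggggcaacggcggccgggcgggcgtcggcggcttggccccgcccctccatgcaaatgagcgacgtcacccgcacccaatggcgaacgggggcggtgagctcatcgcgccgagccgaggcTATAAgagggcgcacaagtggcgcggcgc
TGACGTCA of JUND ends 193 bases before the start and is held by 1.63% of all windows. TGACATCA was found in JUN, 67 to 60 bases before the RefSeq start, and in the first window of ATF3, 123 to 116 bases before it, against 2.37% of all windows. The match of JUN, like its whole window, lies inside the gene as deposited, but outside the exons of JUN in the GENCODE annotation lifted to GRCh37, so whether it lies before the start depends on the annotation. That of ATF3 lies before the gene as deposited. JUN and ATF3 were also the members that were lower in the shSETD2 libraries, but a link between the match and the direction was not tested. FOSL1, ATF2 and BATF3 had no window to search, and the second window of ATF3 did not hold the match. The 30 bases around the match, in capitals, are shown for JUN and ATF3.
JUN, chr1:59249768-59249797, minus strand: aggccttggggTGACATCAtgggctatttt
ATF3, chr1:212738615-212738644, plus strand: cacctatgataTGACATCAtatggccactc
TGANTCA (6.59% of all windows), the CArG box (1.16%) and the κB site (9.95%) were not in these member windows, which says only that these letters are not there. The windows were rich in G and C, from 62.0% to 74.8%, except those of ATF3 at 49.2% and 44.8%, against a median of 58.0% over all windows. JUN, JUNB and JUND are genes of 1 exon, and the other members have 3 to 14 exons.

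The nearest tested gene that does not overlap the member was taken on each side of each member. These 20 places hold 19 genes, since FAM71A lies beside both ATF3 and BATF3, and 2 of the 19 were higher, 13 were lower and 4 did not pass, beside 26.8% higher and 51.8% lower over all genes tested. In 5 of the 20 places the neighbour was called in the direction of its member. No background share was computed for this count, and it was not tested. Tested genes whose span overlaps a member were passed over: ERCC1 at FOSB was higher (log2 fold change 1.57, adjusted p = 4.69e-07 from limma), as was AC104695.3 at FOSL2 (0.36, adjusted p = 0.0120 from limma), and HOOK2 at JUNB was lower (-1.14, adjusted p = 1.43e-05 from limma). Both higher neighbours lie beside FOSL1: CCDC85B, 413 bases away, had a log2 fold change of 1.48 (adjusted p = 1.87e-06 from limma) and C11orf68 of 1.23 (adjusted p = 2.71e-06 from limma). These neighbours and the overlapping genes were chosen after their values were seen. ATF3 and BATF3 lie 65640 bases apart with FAM71A between them, which was lower (log2 fold change -0.78, adjusted p = 2.82e-05 from limma), as ATF3 was and BATF3 was not.

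Lists around the members are described by counts and a median, beside 26.8% higher, 51.8% lower and a median of -0.29 over all genes tested. Of the 13390 tested genes with a control mean of at least 0.5, 23.4% were higher and 54.4% lower, with a median of -0.34. The filter on the mean of all libraries lets in genes that are near 0 in 1 group, so a filter on each group (a mean of at least 0.5 in both, chosen after the data were seen) is given beside it, under which 26.9% of 11603 genes were higher and 48% lower, with a median of -0.22. Of 26 other basic leucine zipper factors that pair with Jun, Fos or each other, 24 were tested (BATF and BATF2 were not listed), with 11 higher (45.8%), 8 lower (33.3%) and 5 that did not pass, and a median log2 fold change of 0.25. With the filter on each group, 11 of 21 were higher and 5 lower (median 0.42). CEBPD, an acute phase factor, was at 1.48, 0.929 and 1.07 in the control, against 20.3, 16.8 and 19.9 in the shSETD2 libraries (log2 fold change 3.22, adjusted p = 1.03e-06 from limma). MAFF (1.98) and CEBPB (1.61) followed, but without shSETD2 library 2 MAFF was at 1.45 and CEBPB at 1.66. CEBPG, which pairs with ATF4, had -1.72. MAF, a factor of lens and blood cell development, was at 6.43, 6.64 and 7.15 in the control and at 0, 0 and 0.0102 in the shSETD2 libraries (log2 fold change -2.95, adjusted p = 8.68e-08 from limma).

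MAP kinase cascades carry the signals that induce FOS and activate JUN and ATF2. Of 33 written, 32 were tested (MAPK10 was not listed), and 11 were higher (34.4%, against 26.8% of all genes), 14 lower (43.8%, against 51.8%) and 7 did not pass, with a median of 0.01, and 11 of 30 were higher and 12 lower with the filter on each group. After median ratio scaling 17 were higher and 7 lower, where 37.7% of all genes were higher and 38.3% lower, so the background moved as well. MAPK11, a p38 kinase, went from 1.38, 1.71 and 1.47 to 12.7, 16.1 and 18.1 (log2 fold change 2.71, adjusted p = 3.25e-06 from limma), and MAP2K3, a kinase that activates p38, had a log2 fold change of 2.04. RPS6KA4, a kinase of histone H3 downstream of p38 and ERK, had 1.97. The other p38 activator, MAP2K6, was at 3.71, 2.73 and 4.14 in the control, against 0, 0.0640 and 0.0290 in the shSETD2 libraries, and the RSK kinases RPS6KA2 and RPS6KA3 had log2 fold changes of -2.59 and -1.25. Named after their values were seen, the p38 kinases MAPK13 (0.97) and MAPK12 (-0.40, adjusted p = 0.000651 from limma) were higher and lower, and MAPK14 did not pass (0.09, adjusted p = 0.794 from limma). MAPK12 did not pass after median ratio scaling or quantile normalization (adjusted p = 0.0746 and 0.0807 from limma), and MAPK14 was lower without shSETD2 library 2 (-0.28, adjusted p = 0.0213 from limma).

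Of 10 tested dual specificity phosphatases, which switch MAP kinases off, 6 were higher (60%, against 26.8% of all genes), 3 lower (30%, against 51.8%) and 1 did not pass, with a median of 0.38. DUSP6 passed the filter through the shSETD2 libraries and DUSP9 through the control libraries. Without DUSP6, 5 of 9 were higher (median 0.27), against 23.4% of all genes with a control mean of at least 0.5. Without both, 5 of 8 were higher (median 0.38), against 26.9% of all genes with the filter on each group. DUSP4, under the filter, was at 0.555, 0.517 and 0.487 against 0.129, 0.147 and 0.189. DUSP5, a nuclear ERK phosphatase, was at 3.28, 3.97 and 3.72 in the control, against 200.1, 189 and 203 in the shSETD2 libraries (log2 fold change 5.41, adjusted p = 1.90e-08 from limma). DUSP6, the cytoplasmic ERK phosphatase, was at 0.314, 0.191 and 0.271 against 21.9, 17.7 and 17.5 (3.99), and DUSP10, which acts on JNK and p38, had 2.22. DUSP9 went from 7.74, 7.51 and 8.35 to 0.336, 0.240 and 0.562 (-2.69), and DUSP8 had -0.47. DUSP16 had -0.37 and did not pass after median ratio scaling (-0.06, adjusted p = 0.438 from limma, with 0.00129 to 0.438 over its alternatives).

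Among 13 factors that bind the promoters of immediate early genes, 7 were higher (53.8%, against 26.8% of all genes), 1 was lower (7.69%, against 51.8%) and 5 did not pass, with a median of 0.69. ETS1 passed the filter through the shSETD2 libraries and MEF2C through the control libraries. Without ETS1, 6 of 12 were higher (median 0.33), against 23.4% of all genes with a control mean of at least 0.5. Without both, 6 of 11 were higher and 0 lower (median 0.69). Of all genes with the filter on each group, 26.9% were higher and 48% lower. ETS1, an effector of RAS signalling, was nearly absent from the control libraries at 0.217, 0.296 and 0.200, against 66.9, 67.1 and 65.6 in the shSETD2 libraries (log2 fold change 5.77, adjusted p = 5.42e-09 from limma). ELK3, a ternary complex factor, had 2.77 and STAT3 1.57. SRF, the partner of ELK factors at the serum response element of FOS, was at 18.1, 17.5 and 18.2 against 17.1, 15.2 and 17.6, which overlapped (adjusted p = 0.151 from limma), and was named after its values were seen. It was higher after median ratio scaling (0.23, adjusted p = 0.0154 from limma) and lower after quantile normalization (-0.20, adjusted p = 0.0237 from limma). MEF2C was the lower gene, at 1.40, 1.36 and 1.28 against 0.103, 0.0878 and 0.0835 (-1.11). Without shSETD2 library 1, 2 factors were lower, and with median ratio scaling 11 were higher, where 37.7% of all genes were.

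Of 11 tested genes for the turnover and cofactors of Jun and Fos, 3 were higher (27.3%, against 26.8% of all genes), 6 lower (54.5%, against 51.8%) and 2 did not pass, with a median of -0.27, near that of all genes (COP1 is listed under its older name RFWD2). With the filter on each group, 3 of 10 were higher and 5 lower (median -0.25). ITCH, a ubiquitin ligase of JUN and JUNB, was at 15.9, 11.7 and 13.3 in the control and 67.7, 49.4 and 47.4 in the shSETD2 libraries (log2 fold change 1.93, adjusted p = 5.13e-05 from limma). CUL4A, a scaffold of ubiquitin ligases, had 1.03. EP300, a coactivator, had 0.22 and did not pass after quantile normalization (0.10, adjusted p = 0.0593 from limma, with 2.37e-05 to 0.0593 over its alternatives). DET1, which brings JUN to another ligase, had -1.71, the coactivator NCOA1 -0.77 and COPS5, which stabilises JUN, -0.58.

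Of 26 other immediate early genes tested, 19 were higher (73.1%, against 26.8% of all genes), 4 lower (15.4%, against 51.8%) and 3 did not pass, with a median of 1.36 (CCN1 and CCN2 are listed under their older names CYR61 and CTGF, and EGR2 was not listed). EGR4 passed the filter through the shSETD2 libraries and EGR3 through the control libraries. Without EGR4, 18 of 25 were higher (median 1.28), against 23.4% of all genes with a control mean of at least 0.5. Without both, 18 of 24 were higher and 3 lower (median 1.36). Of all genes with the filter on each group, 26.9% were higher and 48% lower. IER3, an early survival gene, went from 6.95, 5.85 and 4.57 to 745, 714 and 758 (log2 fold change 6.78, adjusted p = 6.50e-08 from limma). CTGF, a matrix-linked growth factor gene, came next with 2.79, 3.03 and 4.15 against 136, 134 and 138, and then ZFP36L1 (3.66), which speeds decay of short-lived messages. BTG2 went from 10.1, 10.7 and 11.3 to 2.41, 2.52 and 2.26 (-1.78) and IER5 had -1.60. EGR3 had -0.68 and did not pass after quantile normalization (-0.17, adjusted p = 0.0792 from limma, with 0.00015 to 0.0792 over its alternatives).

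Of 27 textbook target genes of AP-1, 21 were listed and 20 tested, and limma called each of the 20 higher in the shSETD2 group, against 26.8% of all genes, with a median of 4.17. Of the 20, 9 had a control mean under 0.5 (4.82% of all genes tested did) and passed the filter through the shSETD2 libraries. The other 11 had a median of 2.18, against -0.34 for all genes with a control mean of at least 0.5, of which 23.4% were higher. The list was chosen with earlier results known, so counts and medians only describe it. IL11, IVL, MMP9, MMP10, MMP13 and SPP1 were not listed. PLAU, the urokinase gene, was at 1.19, 1.22 and 1.27 in the control, against 392, 367 and 388 in the shSETD2 libraries (log2 fold change 7.43, adjusted p = 1.95e-09 from limma), and CXCL8 had 7.57. IL6 was listed at 0 in each control library and read 179, 174 and 185 in the shSETD2 group. CXCL8 and IL6 are among the 9 that passed the filter through the shSETD2 libraries, and PLAU is not. MMP3, which was under the filter, was listed at 0 in the control, against 0.461, 0.647 and 0.859 in the shSETD2 libraries. These targets also answer to other factors, and the part of AP-1 in their values was not tested.

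**Figure D4:**
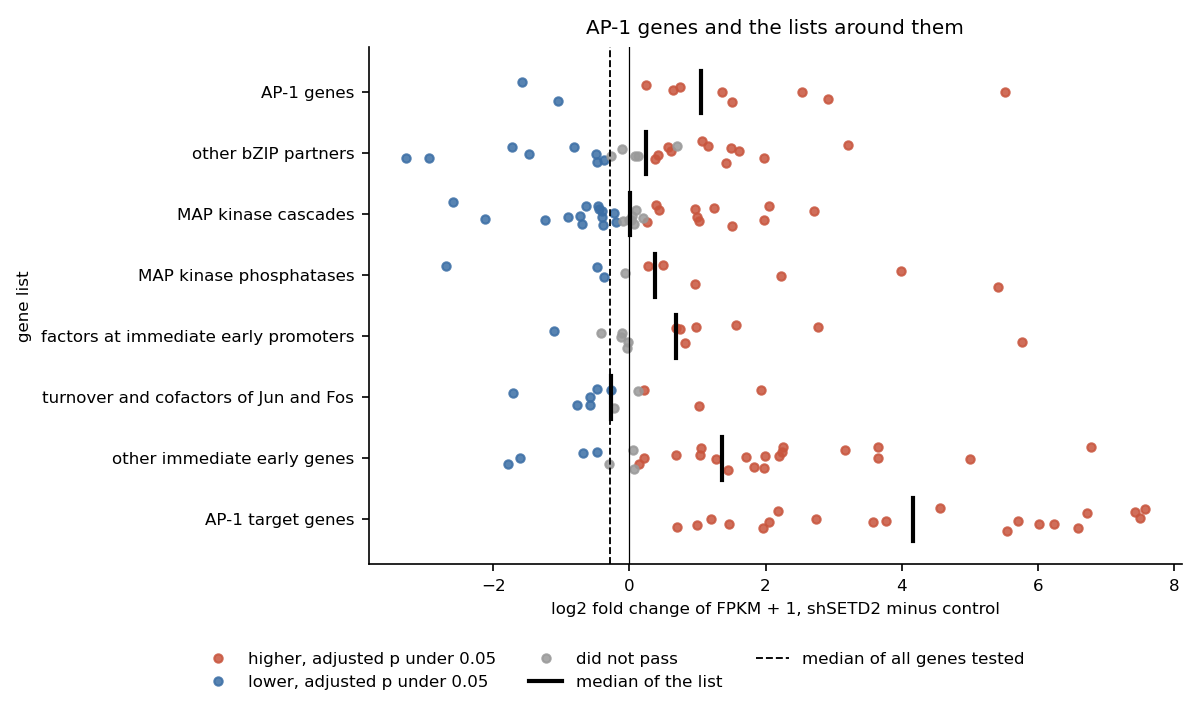
Log2 fold change of FPKM + 1, shSETD2 minus control, of each tested gene of the AP-1 list and of the lists around it (points, coloured by the call of limma), with each list's median (black bars) and the median of all genes tested (dashed line). The target genes have a median of 4.17, and of 2.18 without the 9 that passed the filter through the shSETD2 libraries. MAP kinase cascades are centred at 0.01 and shift to more higher than lower genes with median ratio scaling, under which the genes called over all shift as well.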

How the data were processed

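RNA-seq of 6 libraries (3 control, 3 shSETD2) was used as FPKM that the authors deposited for 15897 genes, of which 122 were at 0 in all libraries. Per the paper, the authors mapped reads to hg19 with Hisat2 and quantified genes with Ballgown; versions and the choice of listed genes are not given in the sources used here. A second deposited table holds the authors' log2 fold changes, fold changes, p and q values and group means and repeats FPKM; it was not used here. Depth is unknown from FPKM, so precision is the spread over libraries.

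The 14068 genes averaging 0.5 FPKM or more were tested on log2(FPKM + 1), a scale that understates the change of low genes, with limma 3.58.1 (lmFit, eBayes with an intensity trend) in R 4.3.3, with Benjamini-Hochberg adjustment and a threshold of 0.05. The exact permutation test was run over libraries. The fit was tested on simulated data. Python 3.11.15, numpy 2.4.6, pandas 2.3.3, scipy 1.17.1 and matplotlib 3.10.9 were used. Alternatives were pseudocounts of 0.1 and 0.01, no filter or a mean of at least 2, median ratio scaling, quantile normalization, no trend, a replicate block and each library left out. A mean of at least 0.5 in each group was added after the data were seen.

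From each list around AP-1, the text names the 3 genes with the largest rise and the 3 with the largest fall among those called without overlap, and genes at 0 in 1 group. A gene that this rule covers is not reported here. The members and lists were chosen with earlier results of these data known.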

Additional observations from a re-analysis of the deposited data

How the results depend on the processing

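Of 10 AP-1 genes, 8 were higher and 2 lower in every alternative except quantile normalization, where JUND reversed to -0.0232 (adjusted p = 0.602 from limma, against 6.71e-05 to 0.602 over its alternatives) and 7 were higher. Leaving out each library in turn gave JUND 0.22 to 0.28. Over all genes, the calls higher went from 3774 to 5305 with median ratio scaling and 4613 with quantile normalization. With median ratio scaling, MAP kinase cascades had 17 genes higher and 7 lower, and factors at immediate early promoters 11 higher, where 37.7% of all genes were higher and 38.3% lower. Lower factors at immediate early promoters numbered 0 at a mean FPKM of at least 2, where fewer genes are tested, 2 with quantile normalization and 1 to 2 with a library left out. Lower immediate early genes numbered 2 at a mean FPKM of at least 2, again with fewer genes tested. For the other changes the cause was not tested. A mean FPKM of at least 0.5 in each group, chosen after the data were seen, left 5 lower among other basic leucine zipper factors, 0 lower among factors at immediate early promoters and 11 higher among the targets, with fewer genes tested. Of 554 values under the alternatives of 38 genes, those named by rule with SETD2, 548 kept direction and side of the threshold. Among genes named after their values were seen, SRF and RHOB were higher with median ratio scaling and lower with quantile normalization, MAPK12 did not pass with either, and MAPK14 was lower without shSETD2 library 2.

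Same-numbered libraries of the groups did not deviate together (r = -0.0237, 0.0177 and -0.0077 across genes). This cannot tell whether they were handled together, which the labels do not state. With the replicate block, 3733 genes were higher and 7243 lower, 8 AP-1 genes were higher and 2 lower, 2 factors at immediate early promoters were lower, and SETD2 passed the threshold (-0.58, adjusted p = 0.01565 from limma, against 0.00666 to 0.377 over its alternatives).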

Other observations

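Further genes of the lists around AP-1 were named after their values were seen. EGR1, the immediate early factor often measured beside FOS, was at 49.9, 51.1 and 50.6 in control libraries 1 to 3, against 249, 234 and 252 in shSETD2 libraries 1 to 3, with no overlap (log2 fold change 2.25, adjusted p = 5.25e-08 from limma). DUSP1, the phosphatase induced together with FOS, was at 25.8, 24.2 and 26.3 against 49.6, 49.2 and 52.9, also with no overlap (log2 fold change 0.96, adjusted p = 4.31e-06 from limma). RHOB, another early gene, was at 112, 109 and 109 against 113, 113 and 117 and did not pass (adjusted p = 0.174 from limma), but was higher after median ratio scaling (0.40, adjusted p = 5.06e-05 from limma) and lower after quantile normalization (-0.14, adjusted p = 0.00189 from limma).

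In some genes of these lists a single library stood apart from its group, also seen after the fact. MAFF was at 4.50 and 4.51 in shSETD2 libraries 1 and 3 and at 15.6 in shSETD2 library 2. MAPK14 was at 3.23 and 3.30 in the same 2 libraries and at 8.18 in shSETD2 library 2. NFE2L2 was at 7.28 and 6.86 in shSETD2 libraries 1 and 2 and at 18.0 in shSETD2 library 3, and IER2 was at 7.40 and 7.57 in control libraries 1 and 2 and at 18.8 in control library 3. These differences within a group were not tested.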
